A study of Mus musculus with 11 samples.

Results

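Cultured proB cells of mice with 1 intact copy each of Ebf1 and Pax5, a genotype in which leukemia arises in this model, were compared with normal proB cells sorted from wild-type marrow. The comparison used 5 of the 11 RNA sequencing libraries of a study of B cell acute lymphoblastic leukemia (B-ALL) in C57BL/6J mice. The other 6 libraries came from leukemic lymph nodes of 3 Ebf1+/- Pax5+/- mice. The 3 dHet proB libraries (dHet for double heterozygous) had the genotype Ebf1+/- Pax5+/- Rag2-/-. Their cells began as c-Kit+ fetal liver cells and were kept on OP9 stromal feeder cells in OptiMEM with 4% fetal calf serum, 5 ng/ml IL-7, 10 ng/ml Flt3 ligand and 10 ng/ml stem cell factor. The 2 wt proB libraries had intact Ebf1, Pax5 and Rag2 and were sorted as Fraction BC cells from bone marrow. The sources used here give no ages, sort markers or length of the culture. The Rag2 genotype, the organ of origin, the age of the tissue (fetal for the liver) and the culture change together with Ebf1 and Pax5 between the groups. Sex differs in part as well, by the sex-linked genes given below. The parts of all these in any difference cannot be told apart. A gene entered the comparison when it had 1 FPKM (fragments per kilobase of transcript, scaled to the mapped fragments of the library) or more in at least 2 of the 5 libraries, which held for 10769 of 24319 genes.

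ProB cells are the earliest committed B cell precursors, which join the gene segments of the immunoglobulin heavy chain. E2A, EBF1 and PAX5 are the transcription factors that start and then lock in this fate: EBF1 switches on the surrogate light chain and the signalling chains of the B cell receptor, and PAX5 activates later B cell genes while repressing genes of other lineages. RAG1 and RAG2 cut the DNA at the segments, so cells without RAG2 cannot make a heavy chain and stop at the proB stage. B cell precursors of fetal liver are known to differ from those of adult marrow: they make little terminal transferase (Dntt), carry no MHC class II protein and express fetal RNA-binding proteins such as those encoded by Lin28b and Igf2bp3.

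Libraries of both groups carried the defining transcripts of proB cells. Cd79a, a signalling chain of the B cell receptor, had 1926, 1472 and 1505 FPKM in dHet proB libraries 1, 2 and 3 and 1441 and 1322 in wt proB libraries 1 and 2. Values are given in this order throughout. Of 17 proB defining markers 14 did not pass the test, 1 was higher (Kit, against 2.78% of all genes) and 2 were lower (Dntt and Rag2, against 8.65%), which are described below. Per gene, the groups were compared by limma on log2(FPKM + 1), so that a log2 difference of 1 is a 2-fold change for genes well above 1 FPKM and understates the change of low genes. A gene passed when its p, adjusted by the Benjamini-Hochberg method over all 10769 genes, was under 0.05.

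The dHet proB libraries differed among themselves more than the wt proB libraries did. Pearson's r across genes was 0.951 to 0.972 among dHet proB libraries, 0.988 between the wt proB libraries and 0.887 to 0.918 between the groups. Of 7294 genes with 10 FPKM or more in any of the 5 libraries, 886 (12.1%) differed by 2-fold or more between dHet proB libraries 2 and 3, against 40 (0.548%) between the wt proB libraries. The Y-linked gene Eif2s3y had 0, 37.2 and 0 FPKM in dHet proB against 46.8 and 32.9 in wt proB, and Xist, the RNA that silences an X chromosome in females, had 11.2, 0 and 15.1 against 0.012 and 0.00185. By these genes dHet proB library 2 and both wt proB libraries were male and dHet proB libraries 1 and 3 were not. Library 3 of dHet proB is titled replicate 3 while its source name gives the same replicate number as that of library 2. Since no label ties a library to an animal or culture of its own, the p-values describe the scatter of these 5 libraries, part of which may be technical. The 2 wt proB libraries carry much of the comparison. Left with 1 of them, whose scatter is then taken to be that of the dHet proB libraries, limma called 3 genes higher and 22 lower when wt proB library 1 was left out, and 7 and 30 when library 2 was. These fits tested 10212 and 10224 genes, because genes near 0 in dHet proB no longer had 2 libraries at 1 FPKM. With all 10769 genes kept, a setting chosen after seeing the data, 25 genes were higher and 452 lower when wt proB library 1 was left out, and 19 and 460 when library 2 was. That setting keeps genes that had reached 1 FPKM through both wt proB libraries alone, whose direction the choice fixes. It is given below only for lists without such genes and for the counts over all genes.

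The targeted genes were read first. Ebf1 had 295, 369 and 283 FPKM in dHet proB against 297 and 542 in wt proB (log2 difference -0.36 ± 0.30 (SE), adjusted p = 0.546). The lowest wt proB library lay within the range of the dHet proB libraries, and a lower level with 1 intact copy was not detectable at this spread. Pax5 had 98.95, 88.7 and 70.9 FPKM in dHet proB against 101 and 57.2 in wt proB (0.17 ± 0.28, adjusted p = 0.784), with the dHet proB libraries between the wt proB libraries. Rag2 had 12.6, 10.2 and 8.57 FPKM in dHet proB against 37.8 and 31.1 in wt proB (-1.64 ± 0.22, adjusted p = 0.00457). It was lower in every library labelled Rag2-/- but not at 0, and 1 FPKM value per gene cannot tell which exons were read.

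Across all genes, 299 (2.78%) were higher in dHet proB and 931 (8.65%) were lower, 11.4% in either direction, and the median log2 difference was -0.03. By 2-fold or more, 203 were higher and 840 lower. The libraries of the groups did not overlap for 42.7% of the tested genes: 19.2% had every dHet proB library above both wt proB libraries and 23.6% had every one below. Higher genes were 24.3% of those called. This share became 45.8% (652 higher, 771 lower) after quantile normalization of the libraries. Of the lower genes 87 were listed at 0 in every dHet proB library. A listed 0 in these tables can be a failed estimate, since Hmgcs1, an enzyme gene of cholesterol synthesis, was listed at 0 in all 11 libraries. Such genes are therefore given by their values alone, with no fold or p. In all, 516 genes were under 1 FPKM in every dHet proB library and were tested only because both wt proB libraries reached that level. They could hardly come out other than lower, and 470 of the 931 lower genes were among them. Likewise 53 of the 299 higher genes were under 1 FPKM in both wt proB libraries. The filter largely fixed the direction of genes of both kinds. Those named below are therefore given without p, and their log2 difference describes size alone. Of the 10041 genes at 1 FPKM or more in a library of each group, a set chosen after seeing the data, 246 (2.45%) were higher and 461 (4.59%) lower.

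**Figure D1:**
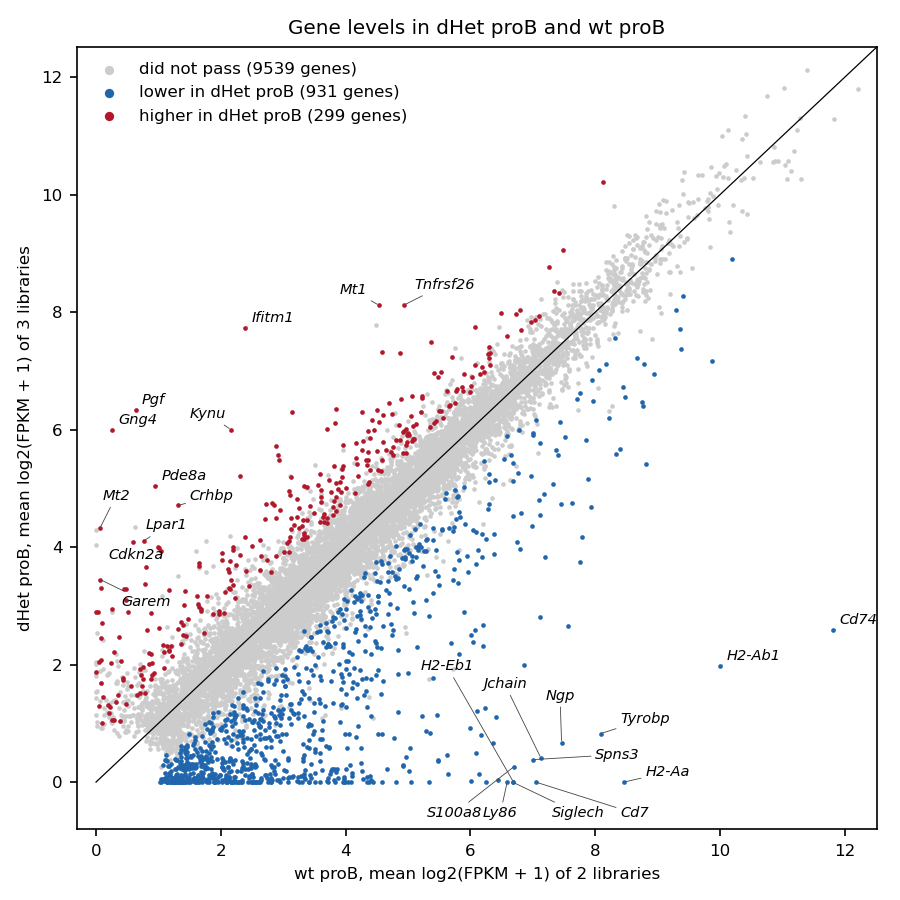
Mean log2(FPKM + 1) of the 2 wt proB libraries (x axis) against that of the 3 dHet proB libraries (y axis), 1 point per gene tested, with the 12 largest rises and the 12 largest falls labelled. Of the 931 lower genes 470 lie at the bottom of the plot, under 1 FPKM in every dHet proB library, and 461 above it, while 53 of the 299 higher genes lie at its left edge, under 1 FPKM in both wt proB libraries.

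The 12 largest rises began with Gng4, Pgf and Ifitm1. Gng4, a G protein gamma subunit, had 63.6, 33.8 and 114 FPKM in dHet proB against 0.184 and 0.196 in wt proB (log2 difference 5.74 ± 0.47). Pgf, which encodes placental growth factor, had 69.8, 40.4 and 176 against 0.423 and 0.701 (5.69 ± 0.57). The interferon-inducible membrane gene Ifitm1 had 186, 95.9 and 532 against 3.04 and 5.81 (5.35 ± 0.68, adjusted p = 0.0037). In these 3 genes library 3 was the highest and library 2 the lowest of the dHet proB libraries, and all were far above wt proB. The metal-binding metallothioneins showed another order, with library 2 on top. Mt1 had 239, 459.9 and 192 FPKM against 23.9 and 20.5 (3.58 ± 0.37, adjusted p = 0.00165), and Mt2 had 12.2, 52.9 and 10.2 against 0.0903 and 0 (4.26 ± 0.66). Pde8a, a cyclic AMP phosphodiesterase, had 23.5, 39.4 and 34.8 against 0.74 and 1.15 (4.09 ± 0.27, adjusted p = 0.000327) and passed in each of 16 other settings of the fit. The death receptor family gene Tnfrsf26 was the most abundant of the 12 after Mt1, at 353, 194 and 313 FPKM against 20.8 and 42.4 (3.18 ± 0.37, adjusted p = 0.00284).

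The other 5 of the 12 largest rises had wider spreads or lower levels. The tryptophan catabolism gene Kynu had 90.6, 20.3 and 133 FPKM against 4.14 and 2.90 (3.84, adjusted p = 0.0201) and did not pass without dHet proB library 1 (adjusted p = 0.0657). Lpar1, a receptor of lysophosphatidic acid, had 18.2, 5.86 and 37.5 against 0.509 and 0.907 (3.34) and likewise did not pass without library 1. Crhbp, which encodes a binding protein of corticotropin-releasing hormone, had 7.10, 30.4 and 69.4 against 1.97 and 1.09 (3.39, adjusted p = 0.0493) and did not pass without library 2 (adjusted p = 0.0757). In Kynu and Lpar1 library 2 was the lowest of dHet proB and in Crhbp library 1 was. Garem, an adaptor of growth factor receptors, had 18.2, 3.64 and 13.6 against 0.0442 and 0.0504 (3.38). Cdkn2a, the locus of the cell cycle and p53 regulators INK4A and ARF, had 14.9, 31.7 and 8.59 against 0.416 and 0.613 (3.50 ± 0.49), and the gene value does not separate its transcripts. Apart from Pde8a, each of the 12 genes lost its call in at least 1 planned fit without a wt proB library.

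**Figure D2:**
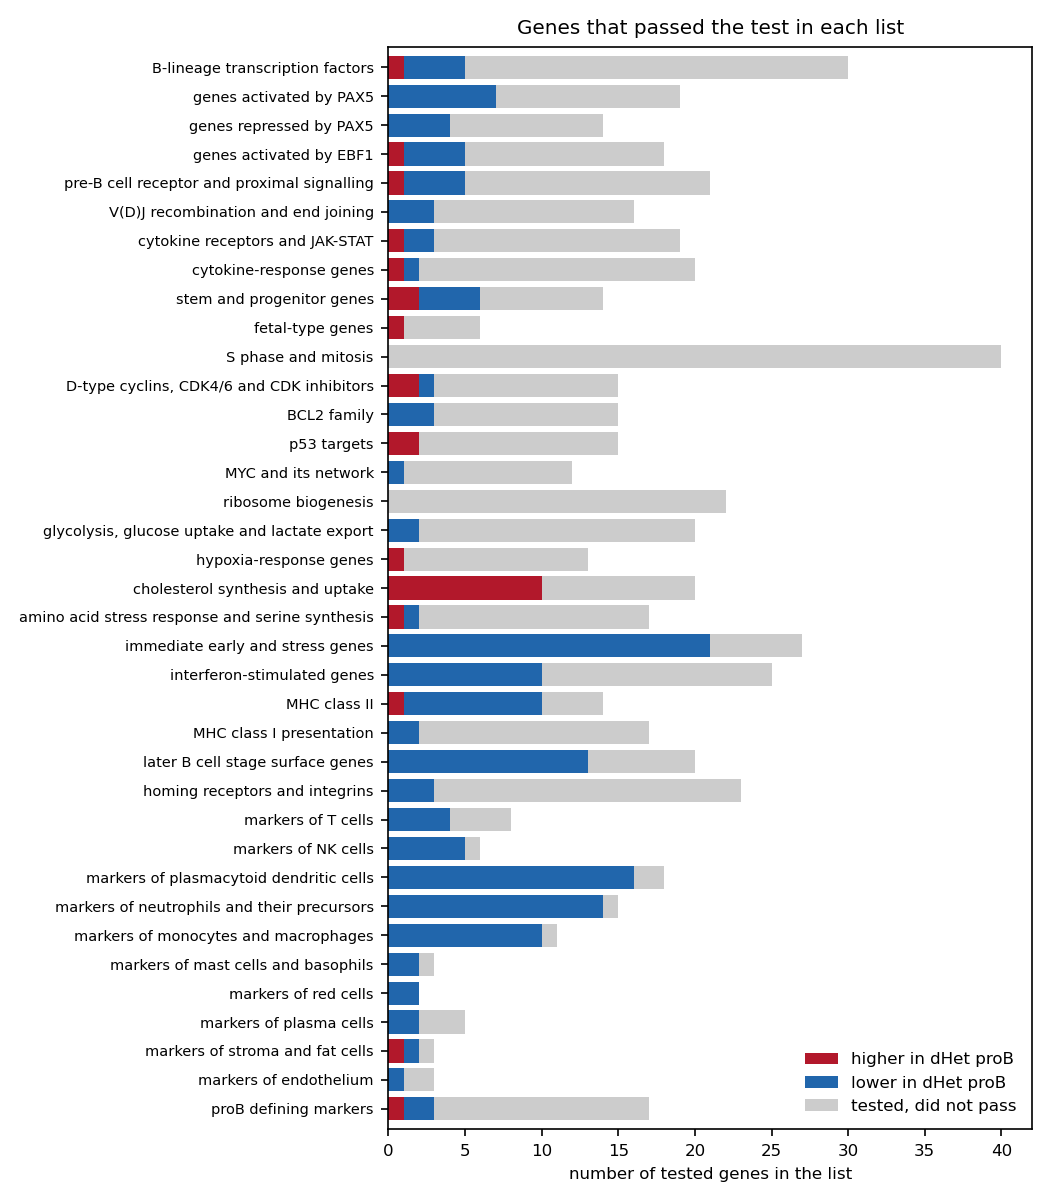
Number of tested genes in each gene list that were higher in dHet proB (red), lower in dHet proB (blue) or did not pass (grey). Cholesterol synthesis is the list with the most higher genes (10 of 20), and lower genes fill most of the bar for immediate early genes (21 of 27). The bars for markers of other cell types are made largely of genes tested only because the wt proB libraries reached 1 FPKM, 44 of 74.

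The 12 largest falls held 3 kinds of gene: MHC class II (Cd74, H2-Aa, H2-Ab1 and H2-Eb1), genes of other blood cells, and B cell genes. Tyrobp, a signalling adaptor of myeloid and NK cells, had 1.49, 0.109 and 1.02 FPKM in dHet proB against 349 and 209.6 in wt proB (-7.26 ± 0.40, adjusted p = 0.000188). The neutrophil granule gene Ngp had 1.49, 0.617 and 0 against 144 and 213 (-6.79 ± 0.40, adjusted p = 0.00024), and S100a8, which encodes a calcium-binding protein of neutrophils, had 0.441, 0.205 and 0 against 129 and 82.5 (-6.43 ± 0.28). In these 3 genes the dHet proB libraries were near 0 and both wt proB libraries were high. Siglech, a receptor of plasmacytoid dendritic cells, was listed at 0 in all dHet proB libraries and had 132 and 77.3 FPKM in wt proB. Cd7, a surface gene of early lymphoid and T cells, was listed at 0 in dHet proB and had 190.3 and 90.3 in wt proB. Ly86, the partner of the Toll-like receptor homologue CD180, was also listed at 0 and had 114 and 79.3. These 3 genes were thus read only in the wt proB libraries of the 5. Jchain, the joining chain of secreted antibodies, had 0.213, 0.104 and 0.753 against 91.2 and 212 (-6.72 ± 0.40), and the membrane transporter gene Spns3 had 0.15, 0.926 and 0 against 116 and 140.2 (-6.62 ± 0.32). Without wt proB library 1 or 2 Cd74 did not pass, H2-Ab1, Tyrobp and Ngp did, and the other 8 fell under the level for testing.

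Markers of other cell types, which were other blood cells, stroma and fat cells and endothelium, were read as whole lists in each library. Of 147 such markers 74 were tested, 44 of them only because both wt proB libraries reached 1 FPKM. Of the 29 at 1 FPKM or more in a library of each group, 14 were lower and 1 higher in dHet proB, against 4.59% and 2.45% of all such genes. The higher gene was Igfbp4, from the list of stroma and fat cells. The 18 markers of plasmacytoid dendritic cells, the interferon-making dendritic cells that share Irf8 and Spib with B cells, summed to 422 to 743 FPKM in dHet proB and 1405 to 1815 in wt proB, and 16 were lower, 8 of them under 1 FPKM in every dHet proB library. Most of the dHet proB sum was Atp1b1, a sodium pump subunit with 243, 257 and 559 FPKM, which is not limited to these cells. Ly6c2 had 1.51, 0.264 and 0.27 against 113 and 58.2 (-5.69, adjusted p = 0.000467) and Smim5 1.997, 1.34 and 0.437 against 87.9 and 80.6 (-5.30, adjusted p = 0.000272), and 6 of the 18, Siglech among them, were listed at 0 in every dHet proB library. The 18 neutrophil markers summed to 0.381 to 3.39 FPKM in dHet proB and 439 to 470 in wt proB. Of 15 tested 14 were under 1 FPKM in every dHet proB library, among them the antimicrobial peptide gene Camp at 0.105, 0.199 and 0 against 44.8 and 53.1 (-5.50). Of the 18, 10 were listed at 0 in every dHet proB library, with the myeloperoxidase gene Mpo at 4.13 and 7.81 FPKM in wt proB. The 16 monocyte and macrophage markers summed to 18.6 to 63.8 FPKM in dHet proB and 294 to 390 in wt proB, and 8 of 11 tested were under 1 FPKM in every dHet proB library. Among these the pore-forming Mpeg1 had 0.0878, 0 and 0.211 against 85.9 and 56.6 (-6.01). Of the other markers, lysozyme (Lyz2) was still at 39.4, 11.9 and 23.999 FPKM in dHet proB against 163 and 116. For all 3 lists the summed level was lower in every dHet proB library than in either wt proB library.

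**Figure D3:**
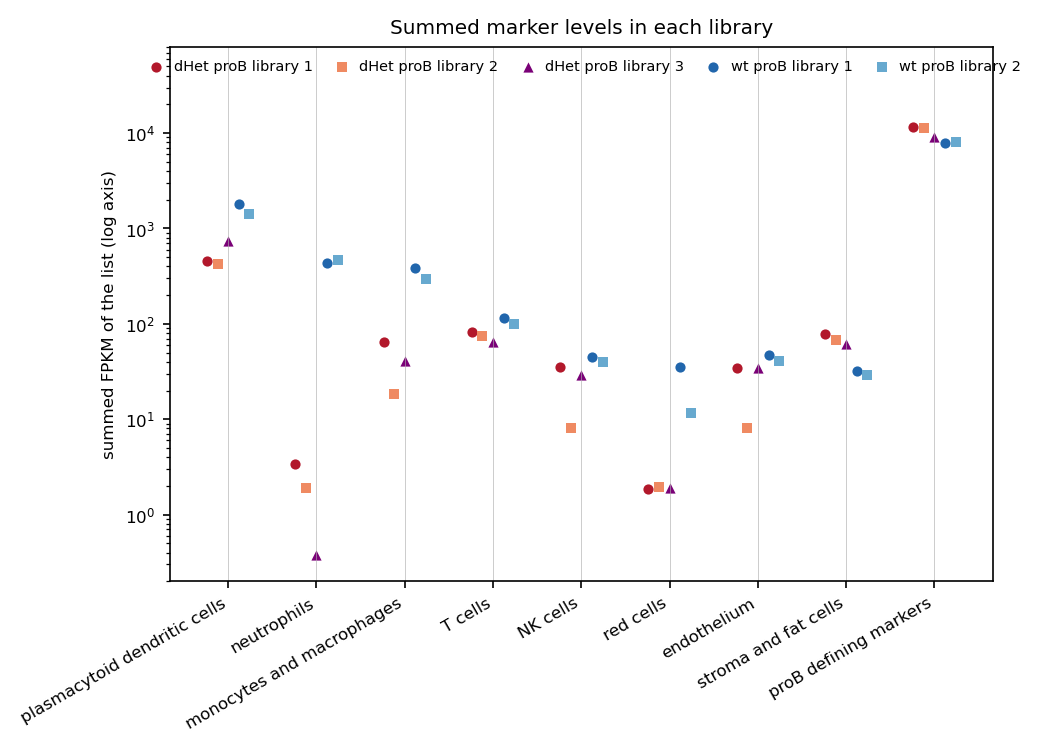
Summed FPKM of each marker list (log axis) in the 3 dHet proB and the 2 wt proB libraries, 1 point per library. Neutrophil markers lie at 0.381 to 3.39 in dHet proB and 439 to 470 in wt proB, while the proB defining markers of the 5 libraries lie close together.

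Lymphocyte and red cell markers had smaller sums. T cell markers summed to 64.2 to 82.7 FPKM in dHet proB and 101 to 115 in wt proB, most of it the kinase gene Lck, which B cell precursors also express (62.6, 45.9 and 50.8 against 49.3 and 44.9). The coreceptor gene Cd4 was listed at 0 in dHet proB and had 6.38 and 3.90 in wt proB, and Cd3e was listed at 0 against 0.671 and 0.273. Of NK cell markers granzyme A (Gzma) was listed at 0 against 4.04 and 3.11. The globin genes Hba-a1 and Hbb-b1 were listed at 0 in dHet proB and had 18.2 and 5.72 and 11.3 and 1.81 FPKM in wt proB. Mast cell markers had 2 of 3 tested lower (Prss34 and Hdc), against 8.65% of all genes, and 1 did not pass. Their sums overlapped between the groups, at 335 to 529 FPKM in dHet proB and 275 to 373 in wt proB. Plasma cell markers had 2 of 5 (Jchain and Derl3), with sums of 839 to 1713 FPKM in dHet proB and 968 to 1008 in wt proB. Endothelial markers had 1 of 3 (Cdh5, 0.032, 0.052 and 0.115 against 7.99 and 7.74). Of these lower genes 2, 1 and 1 were under 1 FPKM in every dHet proB library. No megakaryocyte marker reached the level for testing. Stromal markers summed to 61.6 to 78.5 FPKM in dHet proB, grown on stromal cells, and 29.3 to 31.9 in wt proB. The collagen gene Col1a1 was under the level for testing, at 0.439, 0.245 and 0 FPKM in dHet proB against 0.0579 and 0.0734 in wt proB. Most of the stromal sum in each library was Igfbp4. Igfbp4, an insulin-like growth factor binding protein, was higher (68.6, 62.7 and 57.95 against 21.2 and 20.7, 1.54, adjusted p = 0.00165) and the adhesion gene Vcam1 was listed at 0 in dHet proB against 3.96 and 2.64. With wt proB library 1 or 2 left out, 2 and 3 of 10 plasmacytoid dendritic cell markers still at the level for testing passed, as did the 1 neutrophil marker left (Ngp). The part of such other cells in the differences below was not tested.

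Among MHC class II chain genes H2-Aa, H2-Ab1 and H2-Eb1 were low in dHet proB and high in wt proB, while H2-Oa and H2-Ob did not pass. Class II proteins present peptides to helper T cells, and the coactivator CIITA, which joins the RFX proteins on the promoters, switches their genes on. Of 14 genes of class II and its regulators 9 were lower (against 8.65% of all genes), 1 was higher and 4 did not pass. Of the 10 at 1 FPKM or more in a library of each group 5 were lower, against 4.59% of all such genes. The coactivator gene Ciita, tested only through the wt proB libraries, had 0, 0.0317 and 0.0319 FPKM in dHet proB against 13.6 and 12.4 in wt proB (-3.78 ± 0.17). Cd74, the invariant chain that escorts class II, had 3.23, 1.58 and 18.7 against 3954 and 3282 (-9.23 ± 0.79, adjusted p = 0.000819). H2-Ab1, a beta chain, had 2.88, 5.30 and 1.54 against 1047 and 1009 (-8.02 ± 0.36, adjusted p = 0.000127). In these 3 genes every dHet proB library was far below both wt proB libraries, and library 3 had the highest Cd74 of dHet proB. The alpha chain gene H2-Aa was listed at 0 in dHet proB and had 428 and 287 FPKM in wt proB, and H2-Eb1 was listed at 0 against 145 and 72.001. The peptide-loading chain H2-DMb1, also tested only through the wt proB libraries, had 0.226, 0.365 and 0.296 against 45.6 and 42.1 (-5.11).

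Within the class II list 4 genes did not pass and 1 was higher. The loading inhibitor chain H2-Ob had 56.4, 34.5 and 59.9 FPKM in dHet proB against 63.3 and 65.98 in wt proB (-0.40, adjusted p = 0.428), and its partner H2-Oa had 24.2, 8.48 and 25.7 against 44.8 and 31.8 (-1.06, adjusted p = 0.233). The DNA-binding RFX subunit gene Rfx5 had 13.8, 11.9 and 9.26 against 14.9 and 17.8 and Rfxank 11.5, 11.2 and 9.29 against 12.6 and 12.3, and neither passed. Rfxap, which encodes the remaining RFX subunit, was higher at 8.59, 15.9 and 15.3 against 2.49 and 3.69 (1.77 ± 0.31, adjusted p = 0.0144). Class II genes, Ciita and Cd74 are also transcribed by dendritic cells, whose markers were higher in both wt proB libraries as described above. The count of lower genes was 3 and 4 of 10 tested without wt proB library 1 or 2.

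Promoter letters of class II genes are shown because CIITA acts through the X and Y boxes upstream of their starts. RefSeq promoter entries (build GRCm38.p6) were found for 10 of the 14 genes, and the 250 bases upstream of each start were searched on both strands. The X box was searched as AGNAAC directly followed by NGATG, which 0.259% of 32851 promoters hold, and the Y box as CTGATTGG, which 3.83% hold and which contains the letters of an inverted CCAAT box. The X box letters were found in 2 of 6 lower genes with an entry and 0 of 4 that did not pass, and the Y box letters in 2 of 6 and 1 of 4. The following runs are the 130 bases before the start of the 4 genes with a match, 5′ to 3′ on the gene's strand, with X box and Y box letters in capitals.
H2-Eb1, chr17:34305737-34305866, plus strand: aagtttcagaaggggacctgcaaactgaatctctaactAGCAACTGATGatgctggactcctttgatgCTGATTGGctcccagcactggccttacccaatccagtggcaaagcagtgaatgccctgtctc
H2-DMb1, chr17:34153061-34153190, plus strand: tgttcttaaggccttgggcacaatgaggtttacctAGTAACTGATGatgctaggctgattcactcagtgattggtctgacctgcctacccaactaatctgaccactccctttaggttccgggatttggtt
H2-Aa, chr17:34287824-34287953, minus strand: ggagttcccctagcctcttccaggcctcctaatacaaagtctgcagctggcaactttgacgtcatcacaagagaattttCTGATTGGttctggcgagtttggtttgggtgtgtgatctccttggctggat
H2-Oa, chr17:34092249-34092378, plus strand: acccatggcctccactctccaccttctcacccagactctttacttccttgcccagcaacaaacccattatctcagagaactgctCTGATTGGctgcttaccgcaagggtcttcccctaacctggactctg
The X box began at position -92 in H2-Eb1 and -95 in H2-DMb1, and the Y box at -62 in H2-Eb1, -51 in H2-Aa and -46 in H2-Oa, counted back from the start. H2-Aa and H2-Oa both had the Y box letters alone, and the first was lower while the second did not pass.

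**Figure D4:**
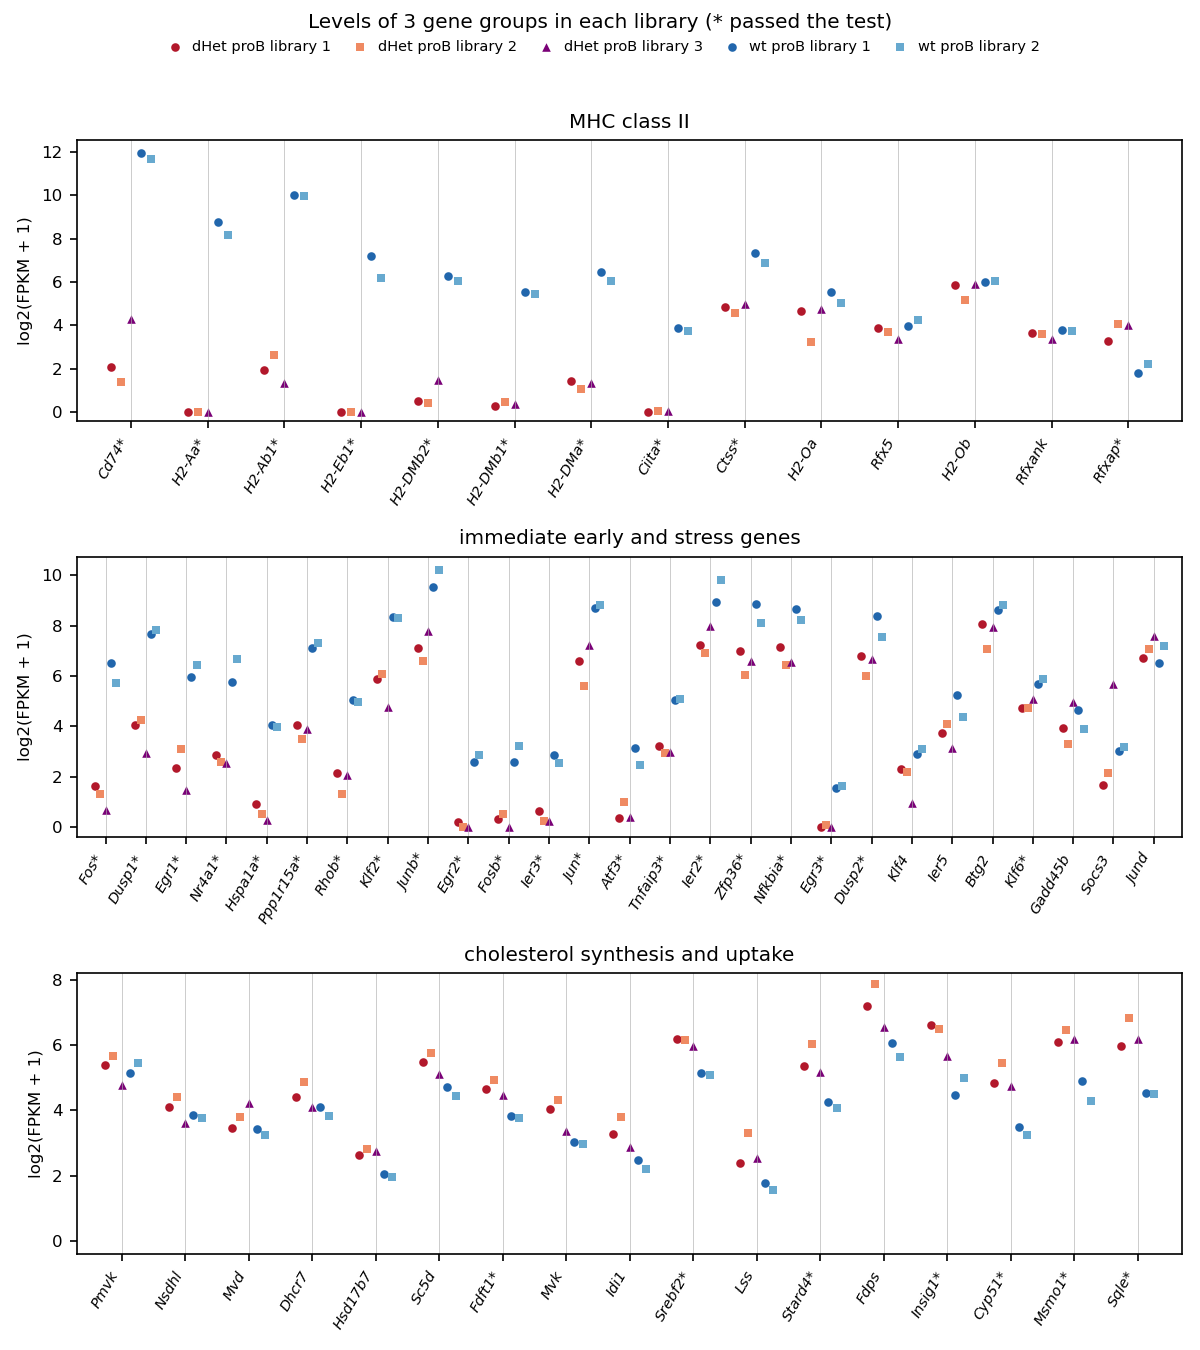
Level as log2(FPKM + 1) in the 5 libraries for the tested MHC class II genes (top), immediate early and stress genes (middle) and 17 of the 20 cholesterol genes (bottom), 1 point per library, genes in order of their difference, an asterisk marking genes that passed. Both wt proB libraries lie above all dHet proB libraries for 13 of 14, 24 of 27 and 0 of 17 genes of the 3 panels, and below them for 1, 0 and 15. Over all tested genes they lie above in 23.6% and below in 19.2%.

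Many surface genes of later B cell stages were lower. Of 20 tested 13 were lower (against 8.65% of all genes) and 0 higher by limma (0 at an unadjusted p under 0.05). Of the 12 at 1 FPKM or more in a library of each group 6 were lower (against 4.59%). Ms4a1, which encodes CD20, was listed at 0 in all dHet proB libraries and had 103 and 54.5 FPKM in wt proB, and the activation marker Cd83 was listed at 0 against 30.1 and 34.5. Tnfrsf13c, the receptor of the survival factor BAFF, had 15.2, 16.2 and 16.6 against 121 and 93.6 (-2.66, adjusted p = 0.000327). Cd2, an adhesion gene that marks large precursor B cells and beyond, had 10.6, 3.90 and 2.21 against 65.5 and 61.1 (-3.50, adjusted p = 0.00661). Every dHet proB library lay below both wt proB libraries in 16 of the 20 genes, against 23.6% of all genes. The exceptions among the 20 included the chemokine receptor gene Ccr7, at 129, 34.5 and 47.8 against 64.4 and 53.1, and the tetraspanin gene Cd37, at 275, 226 and 291 against 405 and 325 (-0.47, adjusted p = 0.247). Just 1 of 12 still tested passed without wt proB library 1 or 2.

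Most B-lineage transcription factors did not pass. Of 30 tested 1 was higher (against 2.78% of all genes), 4 were lower (against 8.65%) and 25 did not pass, at a median of -0.14. E2A (Tcf3) had 468, 633 and 315 FPKM in dHet proB against 476 and 578 in wt proB (-0.21, adjusted p = 0.767). Foxo1, which drives Rag gene transcription, had 44.4, 35.04 and 44.1 against 35.3 and 34.2 (0.23, adjusted p = 0.5), and Lef1, a Wnt pathway factor of B cell precursors, had 546, 515 and 382 against 302 and 421 (0.41, adjusted p = 0.407). In these 3 genes the groups overlapped. The genes that passed as lower were Irf8, at 38.9, 57.8 and 55.2 against 427 and 266 (-2.73 ± 0.28, adjusted p = 0.00156), and the ETS factor gene Spib, at 114, 139 and 115 against 534 and 449.6 (-1.99 ± 0.19, adjusted p = 0.00125). Both are shared with plasmacytoid dendritic cells. Id2, an inhibitor of E proteins, had 7.04, 6.86 and 10.5 against 24.1 and 20.1 (-1.35, adjusted p = 0.0151), and the octamer factor gene Pou2f2 had 6.67, 5.10 and 7.24 against 15.9 and 13.1 (-1.08, adjusted p = 0.0255). Sox4, needed for early B cell survival, was the gene that passed as higher, at 180.3, 179 and 148 against 67.9 and 89.6 (1.10 ± 0.20, adjusted p = 0.0153). Without dHet proB library 1, Id2 (adjusted p = 0.0525), Pou2f2 (adjusted p = 0.0682) and Sox4 (adjusted p = 0.057) did not pass, and the list gave 0 and 1 calls without wt proB library 1 or 2 (2 in each case with the tested genes kept). It gave 2 higher genes without dHet proB library 2 and 3 without library 3. Irf4, which supports light chain rearrangement, had 21.4, 17.1 and 7.84 against 36.7 and 34.98 (-1.27, adjusted p = 0.1) and passed without dHet proB library 3 (adjusted p = 0.0306).

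Some known targets of PAX5 were lower and none of those tested was higher. Of 19 genes activated by PAX5 7 were lower (against 8.65% of all genes) and 0 higher by limma (0 at an unadjusted p under 0.05), and the signalling chain gene Cd79a and the adaptor gene Blnk, targets that proB cells already express, did not pass. Of the 17 at 1 FPKM or more in a library of each group 5 were lower (against 4.59%). The 7 were Ciita, Irf8, Spib and Tnfrsf13c, described above, with Slamf6, Fcer2a and Cd72. Slamf6, a receptor of lymphocyte contacts, had 5.10, 2.44 and 9.54 FPKM in dHet proB against 80.5 and 54.3 in wt proB (-3.47 ± 0.46, adjusted p = 0.00469). Fcer2a, which encodes CD23 of mature B cells, had 0, 0 and 0.152 against 12.95 and 7.54 (-3.38), and Cd72, a brake of B cell receptor signalling, had 323, 291 and 193 against 629.9 and 623 (-1.25, adjusted p = 0.0302). Of 14 genes that PAX5 represses 0 were higher by limma (0 at an unadjusted p under 0.05) and 4 were lower (against 8.65%), 3 of them under 1 FPKM in every dHet proB library. The 4 were the cytokine receptor gene Flt3 at 2.88, 0.205 and 2.33 against 18.6 and 10.8 (-2.61, adjusted p = 0.0256), Ccr2 at 0.0953, 0 and 0.0936 against 9.35 and 6.09 (-3.01), Jchain, and the costimulator gene Cd28 at 0.284, 0.0287 and 0.385 against 1.15 and 1.04. Cd28 did not pass without dHet proB library 1. Flt3 is also transcribed in dendritic cells and Ccr2 in monocytes, and the summed markers of plasmacytoid dendritic cells and of monocytes were higher in both wt proB libraries. The activated list gave 1 and 2 lower genes and the repressed list 0 without wt proB library 1 or 2.

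Most known targets of EBF1 and genes of the pre-B cell receptor did not pass. Of 18 genes activated by EBF1 1 was higher and 4 lower at a median of 0.15, and of 21 genes of the pre-B cell receptor and its signalling 1 was higher and 4 lower at a median of 0.23. Over all genes 2.78% were higher and 8.65% lower. Of the 17 EBF1 targets at 1 FPKM or more in a library of each group, 1 was higher and 3 lower. Over all such genes 2.45% were higher and 4.59% lower. The surrogate light chain genes were abundant in both groups. Igll1 had 3644, 4324 and 2941 FPKM in dHet proB against 1948 and 2251 in wt proB (0.78 ± 0.36, adjusted p = 0.248), and Vpreb1 had 2097, 2516 and 1752 against 1352 and 1381 (0.62 ± 0.31, adjusted p = 0.283). Every dHet proB library lay above both wt proB libraries in these genes, although neither passed. Vpreb2, a near-copy of Vpreb1 between which fragments may be shared out uncertainly, was higher at 304, 529 and 514 against 149.6 and 155 (1.51 ± 0.29, adjusted p = 0.0189). The lower genes were the kinase gene Blk at 21.96, 17.1 and 14.7 against 79.5 and 64.4 (-1.96, adjusted p = 0.00235), the Fc receptor-like gene Fcrla at 35.1, 36.04 and 11.9 against 294 and 203 (-3.25, adjusted p = 0.00711), the costimulatory receptor gene Cd40 and the cannabinoid receptor gene Cnr2. Cd40, tested only through the wt proB libraries, had 0.32, 0.187 and 0.822 against 10.7 and 10.1 (-3.01). In the signalling list the phosphatase gene Ptpn6 (77.7, 82.6 and 51.8 against 194 and 152, -1.30, adjusted p = 0.0208) and the PI3 kinase adaptor gene Pik3ap1 (53.4, 59.96 and 64.4 against 139 and 117, -1.10, adjusted p = 0.00866) were lower, while Syk, Btk and Plcg2 did not pass. Neither list had a gene that passed without wt proB library 1 or 2.

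Besides Rag2, the recombination genes that were lower encode polymerases that act on the ends to be joined. Of 16 tested 3 were lower (against 8.65% of all genes) and 0 higher by limma (0 at an unadjusted p under 0.05), at a median of -0.19. Dntt, the terminal transferase that adds untemplated bases, had 95.5, 26.6 and 27.8 FPKM in dHet proB against 445 and 454 in wt proB (-3.41 ± 0.54, adjusted p = 0.00933). Its relative polymerase mu, Polm, had 1.97, 1.92 and 0.364 against 30.8 and 25.02 (-3.66 ± 0.38, adjusted p = 0.00177). For both genes every dHet proB library was well below either wt proB library. Rag1, the catalytic partner of RAG2, had 46.4, 22.1 and 50.7 against 35.2 and 37.1 (0.05, adjusted p = 0.96), and the wt proB libraries lay within the dHet proB range. The ligase gene Lig4 had 22.5, 18.4 and 16.9 against 26.96 and 29.6 (-0.54, adjusted p = 0.14). None of the 16 passed without wt proB library 1 or 2.

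Kit was higher and Flt3 lower, which encode the receptors of cytokines added to the culture. Kit, the receptor of stem cell factor, had 108, 47.5 and 89.9 FPKM in dHet proB against 7.27 and 8.42 in wt proB (3.15 ± 0.35, adjusted p = 0.00226), and every dHet proB library was well above both wt proB libraries. Flt3, the receptor of Flt3 ligand, was lower as given above. The IL-7 receptor gene Il7r had 120.4, 71.5 and 119 against 74.9 and 59.4 (0.59 ± 0.27, adjusted p = 0.255) and passed without dHet proB library 2 (adjusted p = 0.0311). Of 19 receptor and JAK-STAT genes Kit was higher (against 2.78% of all genes), Flt3 and Il2rb were lower (against 8.65%) and 16 did not pass, at a median of 0.15. Il2rb, tested only through the wt proB libraries, was listed at 0 in dHet proB and had 2.16 and 1.21 FPKM in wt proB. Of the 18 at 1 FPKM or more in a library of each group, 1 was higher (against 2.45%) and 1 lower (against 4.59%). The fetal liver cells that began the culture were c-Kit+, and the part of this in the Kit level was not tested. The list had 3 higher genes without dHet proB library 2. Kit and Flt3 did not pass without wt proB library 1 or 2, while Il2rb fell below the level for testing.

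Stem and progenitor genes did not move as a group. Of 14 tested Kit and Sox4 were higher (against 2.78% of all genes) and Cd7, Flt3, Meis1 and Hoxa9 lower (against 8.65%), at a median of -0.07. Cd7 and Hoxa9 were tested only through the wt proB libraries. Of the 12 at 1 FPKM or more in a library of each group, 2 were higher (against 2.45%) and 2 lower (against 4.59%). The homeobox gene Meis1 had 1.26, 0.535 and 0.814 FPKM in dHet proB against 5.17 and 5.92 in wt proB (-1.82, adjusted p = 0.00326), and Hoxa9 had 0.113, 0 and 0.41 against 2.79 and 1.94 (-1.52). Cd34 and Gata2, markers of stem cells, were listed at 0 in every dHet proB library and were low in wt proB. Among 15 genes known from fetal blood cells and growth 6 could be tested and Igf2bp3 was higher (against 2.78% of all genes). Igf2bp3, an RNA-binding protein of fetal tissue, had 58.8, 47.2 and 50.5 against 6.65 and 6.19 (2.83 ± 0.18, adjusted p = 0.000272) and passed in each of 16 other settings of the fit. Lin28b, which blocks let-7 microRNAs in fetal progenitors, was too low to test, with 1.81, 0.356 and 0.761 FPKM in dHet proB and 0 in both wt proB libraries. The imprinted RNA gene H19 had 1.80, 1.85 and 7.83 against 0 in both wt proB libraries and did not pass, and the let-7 target Arid3a had 9.60, 5.48 and 13.9 against 9.97 and 11.7 (-0.23, adjusted p = 0.77). The fetal list had 3 higher genes without dHet proB library 2 and 2 without library 3. Sox4 did not pass without dHet proB library 1 (adjusted p = 0.057), and Kit, Sox4, Meis1 and Flt3 did not without wt proB library 1 or 2.

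Immediate early genes, which cells switch on within minutes of a stimulus or of handling, were lower in dHet proB. Of 27 tested 21 were lower (against 8.65% of all genes) and 0 higher by limma (0 at an unadjusted p under 0.05). Of the 21 at 1 FPKM or more in a library of each group 15 were lower (against 4.59%). Fos, a subunit of the AP-1 transcription factor, had 2.08, 1.52 and 0.61 FPKM in dHet proB against 89.9 and 51.1 in wt proB (-4.89 ± 0.36, adjusted p = 0.000491). Dusp1, a MAP kinase phosphatase, had 15.5, 18.1 and 6.75 against 205 and 225 (-4.002 ± 0.39, adjusted p = 0.0013). The zinc finger gene Egr1 had 4.18, 7.63 and 1.80 against 61.8 and 85.9 (-3.88 ± 0.46, adjusted p = 0.00295). Fos, Dusp1 and Egr1 were lowest in dHet proB library 3, and both wt proB libraries were well above every dHet proB library. The nuclear receptor gene Nr4a1, induced by antigen receptor signals, had 6.24, 5.08 and 4.94 against 53.1 and 100.2 (-3.53 ± 0.29, adjusted p = 0.000727). Jund did not pass, at 105, 135 and 193 against 90.99 and 146 (0.28, adjusted p = 0.671). The wt proB cells were sorted from tissue and the dHet proB cells grown in culture, and handling and group cannot be told apart. The count was 3 of 21 still tested without wt proB library 1 or 2.

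Interferon-stimulated genes and MHC class I had fewer calls. Of 25 interferon-stimulated genes tested 10 were lower (against 8.65% of all genes) and 0 higher by limma (0 at an unadjusted p under 0.05), and of the 20 at 1 FPKM or more in a library of each group 5 were lower (against 4.59%). Ifitm1, interferon-inducible but not on this list, was higher as given above. Bst2, which encodes the virus-tethering protein tetherin, had 38.1, 34.97 and 31.5 FPKM in dHet proB against 282 and 197 in wt proB (-2.73 ± 0.21, adjusted p = 0.00052), and it is also a surface marker of plasmacytoid dendritic cells. Usp18, a brake of interferon signalling, had 6.61, 1.76 and 4.52 against 20.9 and 24.7 (-2.28, adjusted p = 0.0177), and Ifi44 was listed at 0 in dHet proB against 4.28 and 6.14. The classical genes Isg15 (7.51, 4.35 and 5.56 against 10.6 and 14.4, -0.998, adjusted p = 0.0673) and Ifit1 (2.24, 0.291 and 1.63 against 1.46 and 3.08, -0.51, adjusted p = 0.545) did not pass. Of 17 class I presentation genes 2 were lower (against 8.65% of all genes) and 0 higher by limma, at a median of -0.55. At an unadjusted p under 0.05, 8 were lower and 0 higher, where 2625 of all 10769 genes reached this p in either direction. Every dHet proB library lay below both wt proB libraries in 12 of the 17 (against 23.6% of all genes) and above them in 0. The heavy chain gene H2-K1 had 297, 249.7 and 390.2 against 692 and 662 (-1.14, adjusted p = 0.0319; adjusted p = 0.122 without dHet proB library 1), and H2-Q7 had 0.363, 0.984 and 1.11 against 32.96 and 48.01 (-4.51, adjusted p = 0.000277). The light chain gene B2m did not pass, at 1628, 1106 and 1668 against 2675 and 1670.3 (-0.55, adjusted p = 0.429). The interferon list gave 1 lower gene without wt proB library 1 or 2, and the class I list 1.

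Cholesterol synthesis was the list with the most higher genes. Cells make cholesterol from acetyl-CoA by a chain of enzymes, and the SREBP2 factor (Srebf2) raises these genes together when membrane sterol is low. Of 20 genes tested 10 were higher (against 2.78% of all genes) and 0 lower by limma (0 at an unadjusted p under 0.05), at a median of 1.03 against -0.03 over all genes, and 18 had every dHet proB library above both wt proB libraries (against 19.2%). Sqle, squalene epoxidase, had 61.8, 114 and 72.02 FPKM in dHet proB against 21.96 and 21.5 in wt proB (1.83 ± 0.27, adjusted p = 0.00709). Msmo1, a sterol oxidase gene, had 68.1, 87.1 and 71.3 against 28.9 and 18.7 (1.65 ± 0.23, adjusted p = 0.00563). The sterol demethylase gene Cyp51 had 27.8, 42.8 and 25.98 against 10.3 and 8.52 (1.64 ± 0.26, adjusted p = 0.00878). In these 3 genes library 2 was the highest of all 5 libraries. The regulator gene Srebf2 itself had 72.03, 69.8 and 61.8 against 34.7 and 32.9 (0.98, adjusted p = 0.00934). Fdft1, Insig1 and Stard4 passed as well. Pmvk, phosphomevalonate kinase, was at 40.96, 50.1 and 26.3 against 34.5 and 42.9 (-0.02, adjusted p = 0.978). Library 2 was the highest of the dHet proB libraries in 17 of the 20 genes and library 3 the lowest in 13. The count of higher genes was 7 without dHet proB library 1 and 14 without library 3. It was 0 without wt proB library 1 or 2, or 2 and 0 with the tested genes kept.

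The promoters of sterol genes are shown because SREBP2 works there beside the CCAAT-binding factor NF-Y. RefSeq promoter entries were found for 14 of the 22 genes of the list. The letters CCAAT, searched on both strands of the 250 bases upstream of the start, were in 4 of 4 higher genes with an entry, in 9 of 9 that did not pass and in Hmgcs1, which was not tested, against 33.8% of all promoters. The SREBP site letters TCACNCCAC were found in the promoter of Hmgcs1 alone of these 14, and in 1.05% of all promoters. The CCAAT letters thus did not separate the genes that passed from those that did not. Below are the 180 bases before the start of Msmo1 and the 130 bases before that of Cyp51 (GRCm38.p6, RefSeq), with CCAAT on the gene's strand in capitals.
Msmo1, chr8:64733579-64733758, minus strand: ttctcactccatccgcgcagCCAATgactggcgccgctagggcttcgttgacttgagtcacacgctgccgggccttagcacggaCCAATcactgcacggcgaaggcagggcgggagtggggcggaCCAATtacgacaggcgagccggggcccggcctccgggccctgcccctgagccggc
Cyp51, chr5:4104698-4104827, minus strand: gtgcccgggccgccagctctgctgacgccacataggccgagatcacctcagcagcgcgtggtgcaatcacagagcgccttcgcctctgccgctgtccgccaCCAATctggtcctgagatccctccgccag
Msmo1 had the letters 3 times, at positions -160, -96 and -55, and Cyp51 once at -29.

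Other metabolic lists were near the background of 2.78% higher and 8.65% lower over all genes. Of 20 glycolysis genes 0 were higher by limma (1 at an unadjusted p under 0.05) and 2 lower: the glucose transporter gene Slc2a3 at 4.04, 4.99 and 3.14 FPKM in dHet proB against 11.9 and 12.997 in wt proB (-1.43, adjusted p = 0.00933) and the lactate dehydrogenase gene Ldhb at 1.16, 0.338 and 0.733 against 19.5 and 14.6 (-3.38, adjusted p = 0.000604). Ldha, the main lactate dehydrogenase gene, had 149, 302 and 181 against 281 and 196 (-0.22, adjusted p = 0.767) and the transporter gene Slc2a1 9.21, 11.6 and 12.9 against 9.001 and 5.72 (0.56, adjusted p = 0.246). Of 13 hypoxia-response genes Bnip3, a mitophagy receptor, was higher at 63.9, 83.8 and 87.3 against 21.5 and 15.4 (2.03 ± 0.22, adjusted p = 0.0022), while Vegfa, the vascular growth factor gene, had 0.382, 0.499 and 2.25 against 0.596 and 0.618 and was too low to test. Of 17 genes of the amino acid stress response and serine synthesis the pseudokinase gene Trib3 was higher at 27.7, 17.8 and 29.1 against 6.90 and 10.5 (1.41, adjusted p = 0.0254). The regulator gene Atf4 was lower at 39.5, 61.002 and 42.1 against 105 and 94.6 (-1.08, adjusted p = 0.0275). Neither passed without dHet proB library 1 (Trib3 adjusted p = 0.0828, Atf4 adjusted p = 0.0802). Asns, asparagine synthetase, had 9.41, 36.3 and 8.10 against 1.94 and 2.13 (2.33, adjusted p = 0.0576) and passed without dHet proB library 2 (adjusted p = 0.0043) or 3 (adjusted p = 0.0264). The amino acid list had 5 lower genes without dHet proB library 2 and 3 higher genes without library 3. Across these lists Ldhb alone passed without wt proB library 2 and no gene did without library 1; with the tested genes kept Ldhb passed in both cases and Bnip3 without library 1.

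Few cell cycle genes passed. Of 15 D-type cyclin, CDK and inhibitor genes 2 were higher (Cdk6 and Cdkn2a, against 2.78% of all genes), 1 was lower (Ccnd1, against 8.65%) and 12 did not pass. Cdkn2a was under 1 FPKM in both wt proB libraries and was tested only through dHet proB. Of the 13 at 1 FPKM or more in a library of each group, 1 was higher (against 2.45%) and 1 lower (against 4.59%). Ccnd1, cyclin D1, had 1.55, 0.844 and 1.21 FPKM in dHet proB against 41.1 and 32.3 in wt proB (-4.10 ± 0.23, adjusted p = 0.000206) and passed in each of 16 other settings of the fit. Cdk6 had 23.7, 18.3 and 21.4 against 11.8 and 7.45 (1.08, adjusted p = 0.0365) and did not pass without dHet proB library 1 (adjusted p = 0.112). Neither Cdk6 nor Cdkn2a passed without wt proB library 1 or 2. Cyclin D2 (Ccnd2) had 5.86, 9.45 and 56.3 against 35.8 and 31.2 (-1.10, adjusted p = 0.5), with library 3 above both wt proB libraries and libraries 1 and 2 below them, and it passed as lower without library 3 (adjusted p = 0.00449). Of 40 S phase and mitosis genes 0 passed by limma (0 at an unadjusted p under 0.05), at a median of -0.17, and the proliferation marker Mki67 had 28.7, 44.9 and 20.6 against 36.2 and 35.5 (-0.25, adjusted p = 0.7). The dHet proB libraries, however, fell in 1 order: library 2 was the highest, library 1 the middle and library 3 the lowest of the 3 in all 40 genes. The median log2 difference of library 2 minus library 3 was 1.44, and both wt proB libraries lay within the dHet proB range in 39 of the 40 genes. Pcna, the DNA polymerase clamp, had 311, 526 and 136 against 321 and 293, and the ribonucleotide reductase gene Rrm2 had 713, 1333 and 175 against 789.7 and 1049.5.

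Genes of cell death and the p53 response had few calls. Of 15 p53 targets tested 2, Sesn1 and Ei24, were higher (against 2.78% of all genes). Sesn1, a sestrin that restrains mTORC1, had 137, 71.3 and 86.5 FPKM in dHet proB against 33.9 and 31.1 in wt proB (1.51 ± 0.28, adjusted p = 0.0184), and Ei24 had 33.7, 53.9 and 46.6 against 18.3 and 20.7 (1.14, adjusted p = 0.0251). The cell cycle inhibitor gene Cdkn1a, the best known p53 target, had 22.9, 56.3 and 59.7 against 37.9 and 36.5 (0.19, adjusted p = 0.834). Of 15 BCL2 family genes tested 3 were lower (against 8.65% of all genes) and 0 higher by limma (2 at an unadjusted p under 0.05). Of the 13 at 1 FPKM or more in a library of each group 1 was lower (against 4.59%). Bok, a pore-forming member, had 3.77, 10.9 and 2.89 against 23.2 and 29.4 (-2.16, adjusted p = 0.0344) and did not pass without dHet proB library 1 (adjusted p = 0.0996). The survival genes Bcl2a1b and Bcl2a1d, near-identical copies between which fragments may be shared out uncertainly, were listed at 0 in dHet proB and had 4.70 and 3.15 and 2.27 and 1.46 FPKM in wt proB. They are also abundant in neutrophils and other myeloid cells, whose markers were higher in wt proB. Without dHet proB library 3 the BCL2 family had 2 higher and 5 lower genes. No gene of the 2 lists passed without wt proB library 1 or 2.

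Cytokine-response genes set dHet proB library 3 apart. Of 20 genes induced by STAT5 or ERK signalling 1 was higher (against 2.78% of all genes) and 1 lower (against 8.65%), at a median of -0.09. Library 3 was the highest dHet proB library in 15. Socs2, a feedback inhibitor of cytokine receptors, had 85.9, 146 and 817 FPKM in dHet proB against 21.97 and 20.98 in wt proB (3.28 ± 0.87, adjusted p = 0.064) and passed without dHet proB library 1 (adjusted p = 0.0365) or 3 (adjusted p = 0.00356). Cish, another such inhibitor, had 4.83, 9.44 and 82.4 against 2.96 and 1.92 (2.34 ± 1.05, adjusted p = 0.239). The survival gene Bcl2 had 2.16, 2.21 and 37.2 against 7.40 and 5.95 (-0.07 ± 1.07, adjusted p = 0.982). In Cish and Bcl2 library 3 was far above both other dHet proB libraries, and in Bcl2 these other libraries lay below wt proB. Without library 3 the list had 9 lower genes, Bcl2 among them (adjusted p = 0.0102). Spred1, a RAS pathway inhibitor, was the higher gene at 3.43, 6.71 and 7.55 against 1.38 and 1.79 (1.36, adjusted p = 0.0421) but did not pass without library 2 (adjusted p = 0.0617) or 3 (adjusted p = 0.0511). Dusp6, an ERK phosphatase, was the lower gene at 26.7, 13.4 and 6.99 against 91.4 and 73.1 (-2.49 ± 0.49, adjusted p = 0.022). Neither passed without wt proB library 1 or 2.

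MYC and the genes of ribosome synthesis, known MYC targets, also ordered the dHet proB libraries. Myc had 9.39, 42.3 and 290.1 FPKM in dHet proB against 82.5 and 68.4 in wt proB (-0.58 ± 1.24, adjusted p = 0.832), a range within dHet proB that enclosed both wt proB libraries. Mycn had 4.96, 11.8 and 26.3 against 3.14 and 2.23 (1.80, adjusted p = 0.118) and passed without library 1 (adjusted p = 0.0257). Mycl was the 1 gene of 12 in the MYC network that passed, as lower (against 8.65% of all genes), at 0.482, 0.267 and 1.42 against 5.77 and 4.67 (-1.90, adjusted p = 0.00938). Of 22 ribosome biogenesis genes 0 passed by limma (1 at an unadjusted p under 0.05), at a median of -0.31. Library 1 was the lowest dHet proB library in 20 of them and library 3 the highest in 18, and both wt proB libraries lay within the dHet proB range in 19. The nucleolar gene Gnl3 had 6.56, 17.8 and 43.6 against 27.1 and 19.6, and nucleolin (Ncl) had 63.9, 105 and 104 against 100.4 and 82.4 (-0.04, adjusted p = 0.962). The order of S phase genes (library 2, then 1, then 3) was thus another than that of Myc and ribosome genes (library 3, then 2, then 1).

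**Figure D5:**
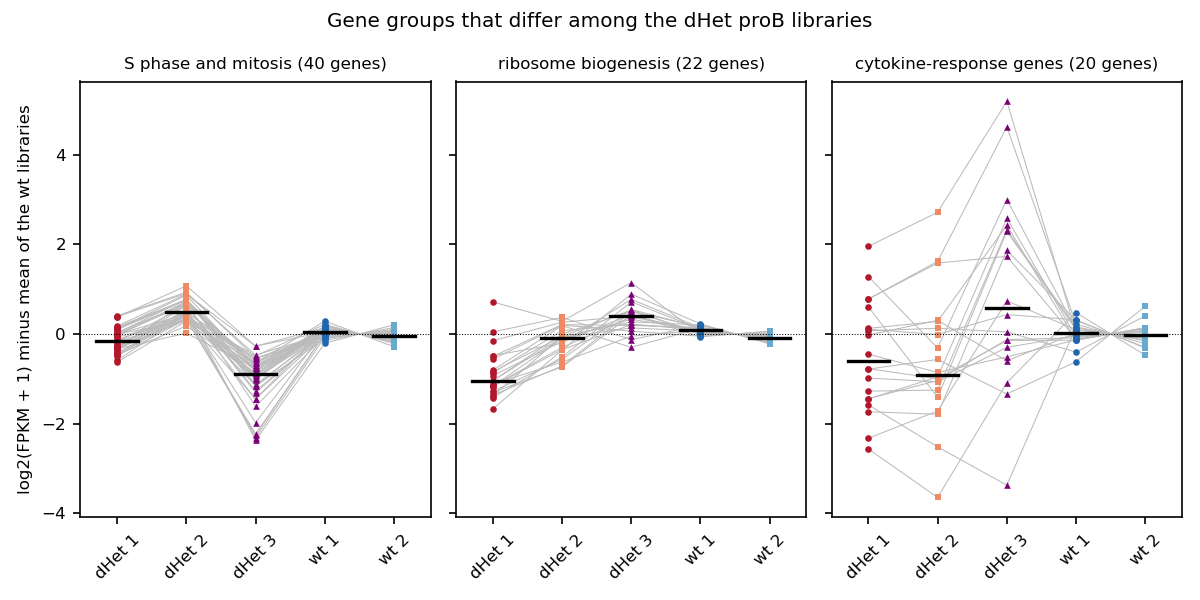
Level of each gene as log2(FPKM + 1) minus the mean of the 2 wt proB libraries, in the 5 libraries, for S phase and mitosis, ribosome biogenesis and cytokine-response genes; grey lines join a gene and black bars are medians over the genes. dHet proB library 2 is the highest and library 3 the lowest in all 40 S phase and mitosis genes, while library 3 is the highest dHet proB library in 18 of 22 ribosome and 15 of 20 cytokine-response genes.

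Homing receptors and integrins were near the background, with 3 of 23 lower (against 8.65% of all genes) and 0 higher by limma (2 higher at an unadjusted p under 0.05). Of the 21 at 1 FPKM or more in a library of each group 1 was lower (against 4.59%). The integrin gene Itgb7, which pairs for gut homing, had 0.261, 0.383 and 0 FPKM in dHet proB against 36.4 and 23.3 in wt proB (-4.65 ± 0.27). The chemokine receptor gene Ccr9 had 4.08, 0.263 and 1.51 against 18.3 and 11.1 (-2.60, adjusted p = 0.0326), and Itgax, which encodes the dendritic cell integrin CD11c, had 0.0105, 0 and 0 against 4.17 and 2.55 (-2.09). Ccr9 is on the list of plasmacytoid dendritic cell markers too. Cxcr4, the receptor that keeps precursors in the marrow, did not pass, at 10.6, 9.83 and 6.25 against 12.5 and 15.5 (-0.62, adjusted p = 0.214). The integrin gene Itga4 and S1pr1 did not pass either, and library 2 was the lowest dHet proB library in 20 of the 23 genes. The list had 2 higher genes without dHet proB library 2. None of those still tested passed without wt proB library 1 or 2.

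The genes that separated single libraries most were short RNA genes and a few others. Lta, which encodes lymphotoxin alpha, had 0.86, 0.301 and 302 FPKM in dHet proB against 1.88 and 0.514 in wt proB, so that library 3 alone was high. The Fc receptor gene Fcgr3 had 27.9, 1.03 and 31.6 against 4.71 and 3.84, low in library 2 alone of dHet proB. Genes of microRNAs and small nucleolar RNAs filled most other places: Snord49a was read at 204 FPKM in dHet proB library 1 and listed at 0 in the other 4 libraries, and Snord4a at 131 in wt proB library 1 alone. All 10 genes with the largest gap between the wt proB libraries were of this kind, whose short length enters the FPKM scaling.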

How the data were processed

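RNA was sequenced from 3 dHet proB and 2 wt proB libraries. The authors deposited FPKM values, 1 table per library, made with STAR 2.5.3a, Cufflinks 2.2.1 and Cuffnorm 2.2.1 on build mm9 after bcl2fastq (2.20.0.422 and 0.3.1), per the submitters' processing notes. Read depth is not given in these FPKM tables, so no interval based on it is given; the FPKM sum to 505261 to 584543 per library, and 9850 to 10595 genes reach 1 FPKM. From them log2(FPKM + 1) was computed and tested with limma 3.58.1 (R 4.3.3; lmFit, eBayes with trend), two-sided, Benjamini-Hochberg adjusted; all p-values but those called unadjusted come from it. In simulated data 67, 67 and 66 of 10769 genes were changed by 2-fold, 4-fold and 8-fold. The test recovered 34.3%, 74.6% and 86.4% of these, with 11 false calls. Far fewer genes were changed there than were called in the data, so these rates may not carry over. An exact permutation of 5 libraries cannot give a p below 0.1.

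The comparison and the 38 lists (630 genes, 625 in the tables) were chosen with earlier results of these data known. Named are the targeted genes, the 12 largest rises and falls among genes that passed with a mean of 10 FPKM or more and no overlap, up to 4 members per list and direction, set reference genes, and the genes that separate single libraries most. Other list members were named after their values were seen. Lists are described by counts and medians, not tested. There were 16 planned and 2 added alternatives. Some results are not reported here.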

Additional observations from a re-analysis of the deposited data

How the results depend on the processing

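As reported, 299 genes were higher and 931 lower. Quantile normalization gave 652 higher genes, and a minimum of 5 FPKM gave 472 lower ones. The other scalings, pseudocounts, filters and limma settings kept both counts within 1.5 times. With each library left out in turn the counts ran from 3 to 567 higher and from 22 to 1109 lower. The lowest counts came without a wt proB library, when fewer genes were tested and 1 wt proB library stood alone; with all tested genes kept they were 25 and 452 without wt proB library 1 and 19 and 460 without library 2. Of 114 named genes that passed, 12 passed in all 16 planned settings. Another 37 passed in every setting that tested them but were not tested in all. These fell under the level for testing in other settings, mostly the fits without a wt proB library that cut the calls most. The rest lost their call in at least 1 setting, and 14 did not pass in at least 1 fit without a dHet proB library.

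Both groups share replicate numbers 1 and 2, but the labels do not say that a number ties samples. Deviations of same-numbered libraries from their group means correlated at -0.0061 and 0.012. The deviations of 2 wt proB libraries mirror each other, so this check cannot tell whether the numbers pair the samples. Adding a replicate block gave 628 higher and 1408 lower genes; dHet proB library 3 has no partner, and the block takes it out of the estimates.

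The sign changed for 11 named genes, of which 0 passed. With 1 library left out, log2 differences ran from -0.79 to 0.077 for Ebf1, -0.23 to 0.57 for Pax5, -0.45 to 0.052 for Tcf3, -0.16 to 0.42 for Rag1, -1.26 to 0.53 for Bcl2, -0.51 to 0.093 for Arid3a, -0.54 to 0.0048 for Mki67, -0.046 to 0.63 for Cdkn1a, -1.84 to 0.56 for Myc, -0.18 to 0.20 for Ncl and -0.51 to 0.041 for Ldha. Without dHet proB library 1 Rag1 was at -0.10, and without library 2 Bcl2 was at 0.52 and Cdkn1a at -0.0050. Without wt proB library 1 Bcl2 was at 0.069 and Ncl at 0.11. The replicate block gave 0.052 for Tcf3, -0.16 for Rag1, 0.0048 for Mki67 and -0.046 for Cdkn1a, as did leaving out dHet proB library 3. Bcl2 was at 0.15 after quantile normalization and Ncl at 0.031 with libraries centred on their median. The cause was not tested.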

Other observations

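The genes in this part were chosen after their values were seen. Components of the phagocyte oxidase, which makes superoxide and is also active in B cells, did not move as 1 group. The proton channel gene Hvcn1, which balances the charge the oxidase moves, had 8.29, 5.87 and 2.97 FPKM in dHet proB against 198 and 180.4 in wt proB (log2 difference -4.91, limma adjusted p = 0.000442). The membrane subunit gene Cybb had 3.56, 1.43 and 9.93 against 39.3 and 30.03 (-2.84, adjusted p = 0.0272), and the organizer subunit gene Ncf1 had 0.0314, 0 and 0.142 against 18.3 and 11.7 (-3.89). These 3 were lower in every dHet proB library. Other subunit genes did not pass: Cyba had 301, 359 and 329 against 462 and 440.4 (adjusted p = 0.209) and Ncf4 had 50.6, 47.3 and 46.3 against 53.4 and 51.1 (adjusted p = 0.704). Cybb and Ncf1 are also abundant in neutrophils and monocytes, whose markers were higher in wt proB, and their part in the result was not tested.

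Lysosomal enzyme genes of antigen processing, Ctsh and Ifi30, were lower beside the class II genes. Ctsh, cathepsin H, had 0.0571, 0 and 0.0281 FPKM in dHet proB against 109 and 67.4 in wt proB (-6.40). Ifi30, the thiol reductase that unfolds antigens, had 2.25, 1.47 and 1.75 against 24.6 and 14.1 (-2.81, adjusted p = 0.00157). The B cell genes Fcmr, the receptor of IgM, and Bank1, a scaffold of B cell receptor signalling, were lower too, at 0.567, 0.306 and 0.372 against 102 and 43.8 (-5.59) and 2.45, 2.72 and 1.73 against 17.5 and 15.2 (-2.40, adjusted p = 0.00107).

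Among secreted and signalling genes that were higher, Tnfsf11, which encodes the osteoclast factor RANKL, had 11.4, 7.56 and 38.1 FPKM in dHet proB against 0.747 and 1.26 in wt proB (3.01, adjusted p = 0.0256). Csf1, the macrophage growth factor gene, had 9.01, 14.8 and 22.8 against 2.84 and 4.42 (1.77, adjusted p = 0.0324). The protein kinase C gene Prkch had 101, 98.8 and 401 against 20.2 and 26.3 (2.73, adjusted p = 0.0359). In these 3 genes library 3 was the highest of the dHet proB libraries. Atp1b3, a sodium pump subunit, was among the most abundant higher genes, at 1527, 954 and 1149.8 against 318 and 242 (2.10, adjusted p = 0.00517).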
